A study of Mus musculus with 7 samples.

Results

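The urea cycle genes are the 8 genes for the enzymes and mitochondrial carriers that turn ammonia into urea in hepatocytes. They were taken by name, under a rule that uses no measured value, though earlier results of these data were known when they were chosen. The genes are Nags, Cps1, Otc, Ass1, Asl, Arg1, Slc25a13 and Slc25a15, out of 21532 protein-coding genes of the mouse annotation. Their receptor binding was read from 6 peak lists of chromatin immunoprecipitation with sequencing (ChIP-seq) of mouse liver. Every peak whose midpoint fell inside a gene or within 50 kb of either end was assigned to that gene, which gave 322 of the 245004 listed peaks. Peaks of different lists that overlapped by at least 1 bp were merged into regions, and 102 of the 87802 regions lay at the 8 genes.

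The livers came from wild-type male C57BL/6 mice, 3 months old, that ate either normal chow (control) or chow with retinoic acid (RA). No allele, transgene or surgery is named for any of them. By the labels the diets lasted 1 day. The methods text describes a longer RA course, and which one applies here is unresolved. The chromatin was precipitated for 1 of 3 nuclear receptors, the α and β forms of the retinoic acid receptor (RARα and RARβ) or the α form of the retinoid X receptor (RXRα), with 1 library for each receptor and diet. There are no replicates, so each difference between diets below compares 2 lists and has no test. How many animals went into a library is not given, and peak lists offer no expression marker by which to check the tissue. Read totals are not in the lists, whose lengths ran from 14968 peaks (RARβ, control diet) to 61128 (RXRα, control diet), so a longer list may reflect a deeper library, and a missing peak means only that none was listed.

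In the urea cycle, ammonia enters in the mitochondrion as carbamoyl phosphate, is joined to ornithine, leaves as citrulline, takes up a second nitrogen from aspartate in the cytosol and is released as urea. The periportal hepatocyte runs the whole cycle, and glucagon, glucocorticoids and C/EBP factors are known to drive the genes of its enzymes. RARs are nuclear receptors that bind DNA as dimers with RXRs at repeats of a short half-site, and RXRα is also the partner of other receptors, such as PPARα, FXR and LXR. RA is the ligand of the RARs, and the gene for RARβ is itself a classical RA target.

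Sequences of the starts were available from RefSeq (GRCm38.p6) for 5 of the 8 genes, Nags, Otc, Ass1, Slc25a13 and Slc25a15. The stretches printed here are those that lie under listed peaks at the start of a urea cycle gene and hold a receptor half-site. The half-sites searched on both strands were AGGTCA or GGGTCA or AGTTCA, and the C/EBP core TTGCNNAA was searched as well. Capitals mark half-sites, and in Nags they mark a pair of half-sites with the 3 bases between them. The first 250 bases upstream are given for Nags (chr11:102145263-102145512, plus strand), Ass1 (chr2:31470020-31470269, plus strand) and Slc25a15 (chr8:22398622-22398871, minus strand), and a 30-base stretch around the Otc half-site (chrX:10252227-10252256, plus strand), each 5′ to 3′ along the gene.
Nags: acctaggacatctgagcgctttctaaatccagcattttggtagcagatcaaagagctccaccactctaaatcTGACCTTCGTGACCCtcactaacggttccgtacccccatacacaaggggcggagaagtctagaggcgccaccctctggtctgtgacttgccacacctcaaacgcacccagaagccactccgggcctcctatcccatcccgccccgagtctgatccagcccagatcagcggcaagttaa
Ass1: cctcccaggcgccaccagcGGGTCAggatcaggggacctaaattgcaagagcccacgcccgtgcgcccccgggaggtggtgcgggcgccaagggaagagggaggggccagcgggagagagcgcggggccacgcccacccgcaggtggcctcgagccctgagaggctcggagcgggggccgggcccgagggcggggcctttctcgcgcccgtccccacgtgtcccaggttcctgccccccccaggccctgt
Slc25a15: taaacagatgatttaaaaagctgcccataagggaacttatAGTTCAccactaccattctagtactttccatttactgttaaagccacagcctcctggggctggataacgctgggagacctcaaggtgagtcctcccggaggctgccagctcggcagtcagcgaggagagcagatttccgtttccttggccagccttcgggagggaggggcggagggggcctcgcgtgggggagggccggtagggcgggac
Otc: agttaggcttaaAGTTCAagtgcccctgca

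The Nags promoter held AGGTCA and GGGTCA on the minus strand, from -178 to -164 relative to the start, as a direct repeat with a 3-base spacer (DR3). This arrangement occurred in 8 of 32851 promoter windows of 300 bases, or 0.0244%. It was looked for only after the sequence had been seen, since the spacers chosen earlier were 1, 2, 4 and 5 bases. None of those 4 repeats was present in the 6 windows of these genes, against 0.417% of all windows with at least 1 of them. Single half-sites are common: AGGTCA was in 16.3% of all promoter windows, GGGTCA in 13.7%, AGTTCA in 14.0%, and at least 1 of the 3 in 37.5%. TTGCNNAA, found in 5.8% of all windows, was in none of the 6. The 250 bases before Nags also lie in the noncoding gene Gm11586, and those before Slc25a15 partly in the noncoding gene 1810012K16Rik. A match of letters is a description of the sequence and not a measured binding site.

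Receptor peaks were listed at nearly all of the 8 genes in every list. RARα peaks were listed at 8 of 8 genes under the control diet and at 8 of 8 under RA, against 83.6% and 84.8% of all protein-coding genes. RXRα likewise had peaks at 8 of 8 genes under both diets, against 83.7% and 84.3%. RARβ had peaks at 7 of 8 genes under the control diet, all but Otc, against 70.2% of all genes, and at 8 of 8 under RA, against 77.8%. Having a peak is thus common to most genes, and the number and rank of the peaks say more.

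The 8 genes together had 45 control and 53 RA peaks of RARα. For RARβ the numbers were 18 and 44, and RXRα had 81 peaks under each diet. Set as a ratio of RA to control, this was 1.18 in RARα, 2.44 in RARβ and 1.0 in RXRα, and the ratios of the whole lists were 1.25, 1.97 and 0.975. Every urea cycle gene had more RARβ peaks under RA than under the control diet, and the whole RARβ list was longer under RA too. The share of all genes with more RARβ peaks under RA is not given, but their median was 1 peak under the control diet and 3 under RA. With all lists shortened to their 14968 highest-scoring peaks, the 8 genes had 26 RARβ peaks under RA against the 18 under the control diet. Per 100 kb of window, the median number of RXRα peaks over the 8 genes was 7.84 under the control diet and 6.44 under RA, where the median gene had 3.77 and 3.69. For RARβ it was 1.48 and 2.95, against 0.957 and 1.92, and for RARα it was 2.78 and 3.71, against 2.66 and 3.07.

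**Figure D1:**
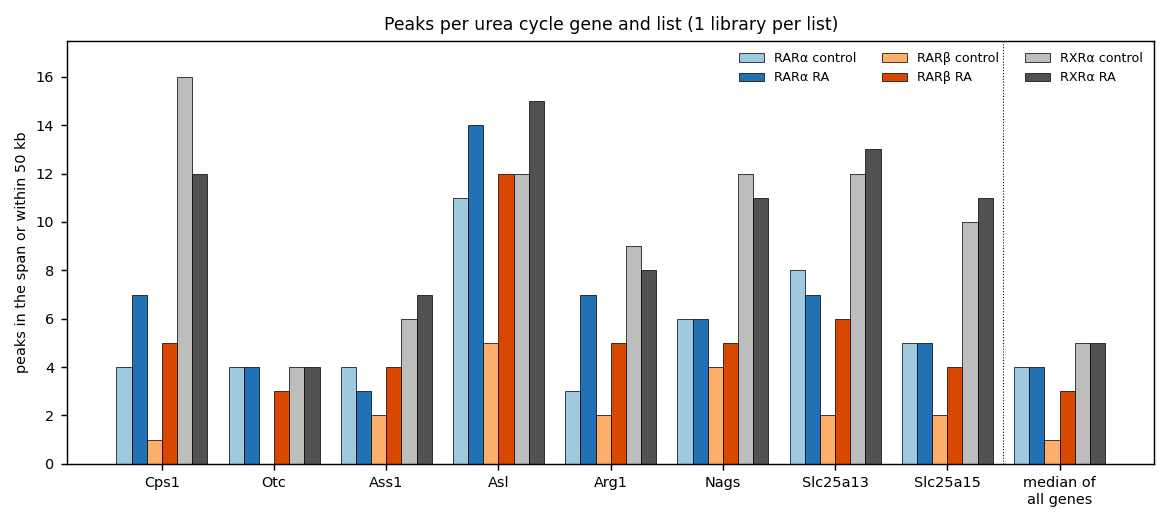
Bars give the number of peaks in the gene or within 50 kb of it (vertical axis) for each urea cycle gene and, at the right, the median of all protein-coding genes, with 1 bar per list. RARβ bars are higher under RA than under the control diet at each gene, and Cps1 has the largest RXRα bar, 16 peaks under the control diet.

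Peaks fell mostly outside the starts, where most of each window lies, as the windows were 104 to 276 kb long. Of the 322 peaks, 36 had their midpoint within 1 kb of the start of the gene, 160 lay further upstream, 51 inside the gene and 75 downstream. The gene's own start was the nearest protein-coding start for 184 peaks (57.1%), and for the rest another gene's start was nearer. The share was 100% at Slc25a13, 84.4% at Cps1, 82.4% at Arg1, 76.9% at Ass1, 73.7% at Otc, 43.2% at Slc25a15, 31.8% at Nags and 8.7% at Asl. Asl, Nags and Slc25a15 stand close to other genes, and their counts are to be read with that in mind. The places of the peaks and the shares nearest to the own start are given without the same values over all genes.

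**Figure D2:**
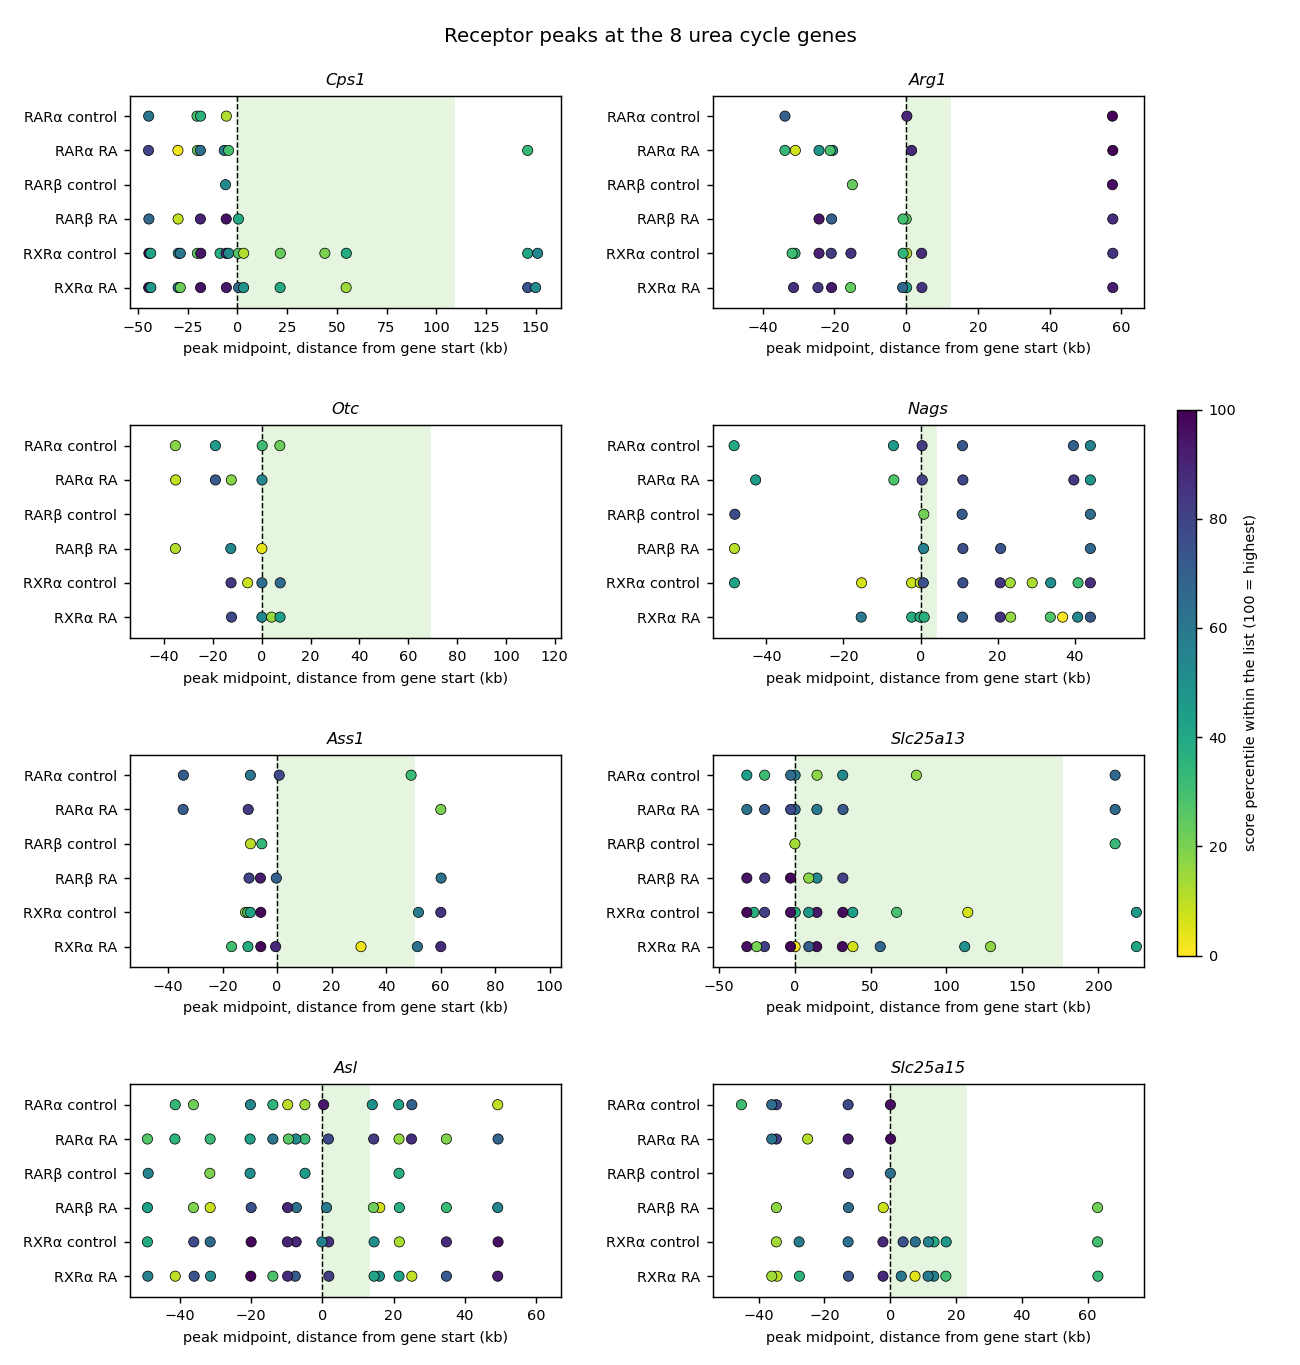
Each panel shows 1 urea cycle gene, with the distance of each peak midpoint from the gene start in kb (horizontal axis), 1 row per list, the gene body shaded green, and colour giving the score percentile within the list. High-ranking RXRα and RARβ RA peaks line up in vertical columns upstream of Cps1, Ass1, Arg1 and Slc25a13, while the RARβ control row is thin, with 18 peaks in all.

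Within a list, peaks were ranked by the caller's score, and the rank is given as a percentile, with 100 for the highest. The highest peak of each gene had a median percentile of 94.2 in the RXRα list under the control diet and 95.5 under RA, against medians of 80.8 and 80.4 over all genes. In the RARβ list the median of the 8 genes was 53.7 under the control diet and 91.0 under RA, while the median of all genes was 62.6 and 77.2. The RARα medians were 79.9 and 82.6, below the all-gene medians of 83.6 and 86.0. These medians describe 8 genes, were not tested, and include peaks at neighbouring starts. Counting only peaks for which the gene's own start was the nearest, the medians of the 8 genes were 79.9 and 79.2 for RARα, 28.3 and 75.9 for RARβ and 89.9 and 90.4 for RXRα. The medians of all genes under the same restriction were 53.3 and 59.6, 0.0 and 25.3, and 46.8 and 48.1. A gene without such a peak was counted as 0, so the 0.0 stands for no listed peak. Windows of the 8 genes had a median length of 137 kb, against 117 kb over all genes. The 8 genes thus stood above the median gene in both counts in the RXRα lists and in RARβ under RA, whereas for RARα and for RARβ under the control diet the direction depended on which peaks were counted. With all peaks counted, the RXRα medians were 94.3 and 95.1 over 15 other genes of nitrogen and amino acid metabolism. Over 8 regulators known for the cycle genes they were 96.2 and 94.6. For RARβ under RA, these 2 sets had medians of 89.9 and 78.8. The high RXRα ranks were thus not particular to the urea cycle genes.

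A peak in the top 10% of its list was found in RXRα at 5 genes under each diet, Cps1, Ass1, Asl, Arg1 and Slc25a13, against 34.3% of all genes under the control diet and 33.0% under RA. In RARβ, it was found only at Arg1 under the control diet (1 of 8 genes, against 18.4%) and at Cps1, Ass1, Arg1 and Slc25a13 under RA (4 of 8, against 29.1%). In RARα the genes were Asl, Arg1 and Slc25a15 under the control diet (3 of 8, against 36.2%) and Arg1 and Slc25a15 under RA (2 of 8, against 40.3%). Several of these peaks lay at neighbouring starts, so the same count was made with peaks nearest to the gene's own start. RXRα then kept 4 of 8 genes under each diet, without Asl, against 15.8% and 15.1% of all genes. RARβ under RA kept all 4, against 10.9%, and RARβ under the control diet had 0 of 8, against 6.11%, because the Arg1 peak is the one at Med23. RARα kept Asl and Slc25a15 under the control diet (2 of 8, against 14.8%) and Slc25a15 under RA (1 of 8, against 17.2%), with Arg1 at percentiles 89.8 and 88.7.

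**Figure D3:**
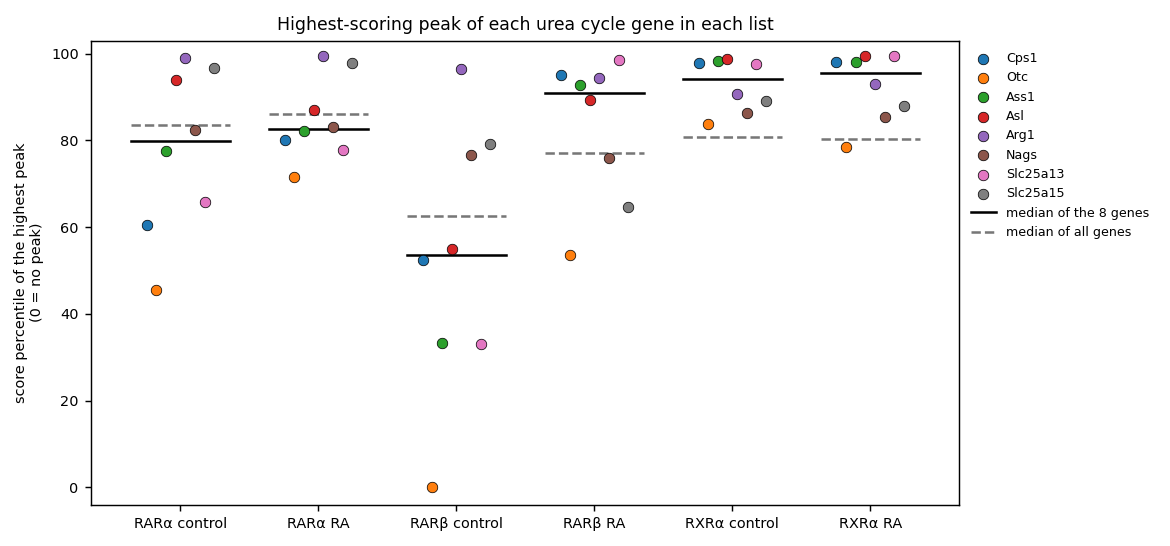
Points give the score percentile within each list (vertical axis, 0 where no peak was listed) of the highest peak of each urea cycle gene, with solid lines for the median of the 8 genes and dashed lines for the median of all protein-coding genes. The solid line lies above the dashed one in RARβ RA (91.0 against 77.2) and in both RXRα lists, and below it in the other 3 lists.

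At the starts themselves, counted by peak midpoints, RARα had peaks at the most genes under the control diet and at the fewest under RA. Under the control diet, a RARα peak within 1 kb of the start was listed at 7 of 8 genes, all but Cps1, against 45.9% of all genes, and under RA at 4 of 8 (Otc, Nags, Slc25a13 and Slc25a15), against 46.2%. The lower count is partly a matter of width. Under RA, single broad peaks of 4202 bp at Asl and 3697 bp at Arg1 covered the start, with midpoints further inside. Counted by peaks that cover the start base, RARα had 7 and 6 genes, RARβ 2 and 4, and RXRα 5 and 5, control diet first. By that count RARα had the most starts under both diets, but it is given without the same share over all genes. By midpoint, RARβ had a start peak at 3 of 8 genes under the control diet (Nags, Slc25a13 and Slc25a15), against 33.0%. Under RA it was 5 of 8 (Cps1, Otc, Ass1, Arg1 and Nags), against 40.3%. Nags was the sole gene in both RARβ sets. RXRα had a start peak at 6 of 8 genes under the control diet, against 40.1%, and at 6 of 8 under RA, against 41.9%, with Cps1, Otc, Arg1, Nags and Slc25a13 in both sets, Asl in the former and Ass1 in the latter.

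Nags (chr11:102145513-102149528, plus strand) makes N-acetylglutamate, the obligatory activator of the first enzyme of the cycle. It had 6 RARα peaks under each diet, with 4 and 5 RARβ peaks and 12 and 11 RXRα peaks, the control diet first here and below. Its start region was called in all 6 lists and was the only such start among the 8 genes. A RARα peak covered the start with a score of 259.44 under the control diet (percentile 82.4) and 259.04 under RA (percentile 80.4), so its rank was nearly the same under both diets. It also covered the DR3 sequence printed above. The RARβ start peak scored 57.4 (percentile 21.2) and 110.78 (percentile 56.7), with midpoints 0.861 and 0.789 kb inside the gene. RXRα had a pair of peaks there. The outer one, which covered the DR3, ranked at percentile 8.8 under the control diet and 37.7 under RA. The inner one was the other way round, at percentile 75.8 under the control diet and 36.6 under RA.

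Cps1 (chr1:67122426-67231267, plus strand) encodes carbamoyl phosphate synthetase, the mitochondrial entry step for ammonia. Its RXRα counts were the highest of the 8 genes under the control diet, 16 peaks, with 12 under RA, while RARα had 4 and 7 and RARβ 1 and 5. No list had a peak over the annotated start base. Just inside the gene, about 0.5 kb from the start, a region was called for RARβ under RA (percentile 39.8) and for RXRα under both diets (percentiles 27.1 and 65.8), but in no RARα list. The higher-ranking peaks stood upstream. The RXRα peak 44.5 kb upstream scored 873.76 under the control diet and 936.08 under RA (percentiles 97.9 and 98.0), and the highest RARα peaks of the gene lay in the same region, at percentiles 60.5 and 80.0. This region is nearer to the start of Lancl1 (39.0 kb) than to that of Cps1. The region 6.52 kb upstream was called in all 6 lists and held the only RARβ peak under the control diet, which scored 78.63 (percentile 52.5), and the highest RARβ peak under RA, which scored 298.22 (percentile 95.1). A further RARβ peak 18.6 kb upstream was listed under RA alone, at percentile 90.7, in a region where RXRα under the control diet stood at percentile 94.4.

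Otc (chrX:10252230-10321024, plus strand) encodes ornithine transcarbamylase, which makes citrulline in the mitochondrion. It had the fewest peaks of the 8 genes, 19 in all: 4 in each RARα and RXRα list, none for RARβ under the control diet and 3 under RA. A compact region at the start was called in 5 lists. There, RARα scored 78.35 under the control diet (percentile 30.9) and 134.47 under RA (percentile 54.1), RXRα ranked at percentiles 64.3 and 53.4, and the RARβ peak under RA scored 52.38, close to the lowest listed score of 50. The AGTTCA printed above lies inside this region, downstream of the outermost annotated start. The highest RXRα peaks of Otc were 12.6 and 12.4 kb upstream (percentiles 83.7 and 78.6), with RARβ under RA in the same place at percentile 53.6. The highest RARα peaks were 19.0 kb upstream (percentiles 45.6 and 71.5), nearer to the start of Rpgr.

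Ass1 (chr2:31470270-31520670, plus strand) encodes argininosuccinate synthase, which brings in aspartate. Its counts were 4 and 3 for RARα, 2 and 4 for RARβ, and 6 and 7 for RXRα. No peak over its start was listed for the same receptor under both diets. The start was covered under the control diet by a RARα peak of 2771 bp (score 222.46, percentile 77.5), the gene's highest RARα peak under that diet, and under RA by RARβ (140.11, percentile 69.6) and RXRα (485.08, percentile 89.0). All 3 lay over the GGGTCA printed above, at -231 to -226 from the start. The RXRα peak was the only one at the 8 genes that was listed under 1 diet alone and stood in the top 20% of an RXRα list. Farther out, the region 5.99 kb upstream carried the highest RXRα peaks, at percentiles 98.4 and 98.2, and RARβ scored 63.59 there under the control diet (percentile 33.4) and 258.86 under RA (percentile 92.7). The region 10.7 kb upstream was called in all 6 lists and held the highest RARα peak under RA (percentile 82.1).

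Asl (chr5:130011258-130024381, minus strand) encodes argininosuccinate lyase, which releases arginine and fumarate. It was the most crowded window, with 69 peaks, but only 6 of these were nearest to its own start, and the starts of Crcp, Gusb and Tpst1 lie in the same window. RARα had 11 and 14 peaks, RARβ 5 and 12, and RXRα 12 and 15. At its own start, RARα was called under both diets (percentile 94.0 under the control diet, percentile 77.8 for the broad peak under RA). RARβ was called there under RA alone in a peak of 2951 bp (percentile 59.0), and RXRα over the start base under the control diet (percentile 56.4). The same region held higher-ranking RXRα peaks under both diets, 1.75 and 1.81 kb inside the gene (percentiles 85.9 and 82.2). The highest RXRα peaks of the window, 995.09 and 1246.77 (percentiles 98.7 and 99.4), lay 20 and 20.1 kb upstream in a region called in all 6 lists, whose nearest start is that of Crcp. The highest RARβ peak under RA, 9.79 kb upstream (percentile 89.3), had no RARβ peak under the control diet and was also nearer to Crcp. A second region called in all 6 lists, 21.4 kb downstream, lay 0.078 kb from the start of Gusb.

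Arg1 (chr10:24915207-24927470, minus strand) encodes liver arginase, which splits arginine into urea and ornithine. RARα had 3 and 7 peaks, RARβ 2 and 5, and RXRα 9 and 8. RARα covered its start under both diets, with a peak of 1015 bp under the control diet (score 338.96, percentile 89.8) and a broader one of 3697 bp under RA (339.64, percentile 88.7), whose midpoint lay 1.51 kb inside the gene. In the same place, RARβ was listed under RA alone, at percentile 25.4, and RXRα stood lower, at percentiles 11.7 and 42.8. The highest RARα peaks in the window, 667.31 and 747.11 (percentiles 99.0 and 99.4), were 57.5 and 57.6 kb from the Arg1 start. They belong to a region called in all 6 lists that lies 0.058 kb from the start of Med23, as does the highest RARβ peak under the control diet (percentile 96.4). A neighbouring region 0.901 kb upstream of the start had RXRα at percentiles 34.4 and 67.0 and RARβ under RA at percentile 29.7. The regions further upstream, nearest to Arg1 itself, ranked higher. At 24.3 kb upstream, RXRα under the control diet stood at percentile 90.8, and a RARβ peak of score 285.85 (percentile 94.4) was listed there under RA alone. At 20.8 kb upstream, the highest RXRα peak under RA (percentile 93.0) was joined by RARβ under RA (percentile 70.6) and by no RARβ peak under the control diet.

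Slc25a13 (chr6:6041218-6217304, minus strand) encodes citrin, the carrier that exports aspartate from the mitochondrion. All 48 of its peaks were nearest to its own start, which makes it the clearest of the 8 windows. RARα had 8 and 7 peaks, RARβ 2 and 6, and RXRα 12 and 13. The RARβ peaks under the 2 diets were in different places: none of the 2 control peaks overlapped any of the 6 RA peaks. The control peaks ranked low, at the start (54.2, percentile 13.6) and 211.0 kb from it, past the far end of the gene (63.28, percentile 33.0). Under RA, RARβ had no peak at the start, and its highest peak at any of the 8 genes lay 2.64 kb upstream, with a score of 462.13 (percentile 98.5, rank 445 of 29467). Others under RA were 31.4 kb upstream (percentile 94.8), 19.6 kb upstream (percentile 83.2) and 31.8 kb inside the gene (percentile 80.5). All 4 lay in regions where RXRα was called under both diets, with control percentiles of 95.8, 97.3, 81.3 and 97.6. At 2.65 kb upstream, RXRα under RA scored 1261.01 (percentile 99.4), and the highest RARα peak under RA (percentile 77.9) was in the same region. At the start, RARα ranked at percentiles 58.6 and 66.2 and RXRα at percentiles 37.9 and 1.1.

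Slc25a15 (chr8:22375550-22398621, minus strand) encodes the carrier that exchanges ornithine for citrulline across the inner membrane. Its RARα start peak ranked highest of the 8 genes under both diets, with scores of 501.86 under the control diet (percentile 96.7) and 563.03 under RA (percentile 97.9). No RXRα peak was listed at this start under either diet, and RARβ was listed there under the control diet alone (92.33, percentile 63.4). The AGTTCA printed above lies under these peaks. RXRα was instead highest 2.22 and 2.19 kb upstream (percentiles 89.0 and 87.9), where RARβ appeared under RA at percentile 7.6. The region 12.8 kb upstream was called in all 6 lists and held the highest RARβ peaks, at percentiles 79.1 and 64.6, and its nearest start, at 0.938 kb, is that of Mrps31. There were 5 RARα peaks under each diet, with 2 and 4 for RARβ and 10 and 11 for RXRα.

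A pair of peaks was counted as shared when the overlap covered 25% or more of both. Under RA, 13 of 44 RARβ peaks at the 8 genes (29.5%, Wilson 95% interval 18.2 to 44.2, counting error only) were shared with the control diet, against 38.2% of the whole list. In the other direction, 13 of 18 control RARβ peaks (72.2%, interval 49.1 to 87.5) were shared with RA, against 75.8%. For RXRα, 69 of 81 control peaks (85.2%, interval 75.9 to 91.3) recurred under RA, against 78.7%, and 67 of 81 RA peaks (82.7%, interval 73.1 to 89.4) had a control partner, against 80.3%. For RARα, 37 of 45 control peaks (82.2%, interval 68.7 to 90.7) and 37 of 53 RA peaks (69.8%, interval 56.5 to 80.5) were shared, against 84.2% and 68.4%. The value over the whole list fell inside the interval in all 6 cases.

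The shares of RARβ peaks found together with RXRα were close to those of the whole lists. Under RA, 42 of 44 RARβ peaks (95.5%, interval 84.9 to 98.7) were shared with RXRα, against 89.9% of the list, and under the control diet 14 of 18 (77.8%, interval 54.8 to 91.0), against 77.8%. RARα shared less with RXRα, 29 of 45 peaks (64.4%, interval 49.8 to 76.8) under the control diet and 38 of 53 (71.7%, interval 58.4 to 82.0) under RA, against 61.1% and 61.7%. RARα peaks shared with RARβ numbered 13 of 45 (28.9%) under the control diet and 33 of 53 (62.3%) under RA, against 31.0% and 48.8%. All of these shares depend on the length of the partner list. In lists shortened to equal length, the share with RXRα was 33.3% (interval 16.3 to 56.3) for RARβ under the control diet. Under RA it was 76.9% (interval 57.9 to 89.0). These rest on 18 and 26 peaks, have no whole-list value beside them, and their difference was not tested.

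**Figure D4:**
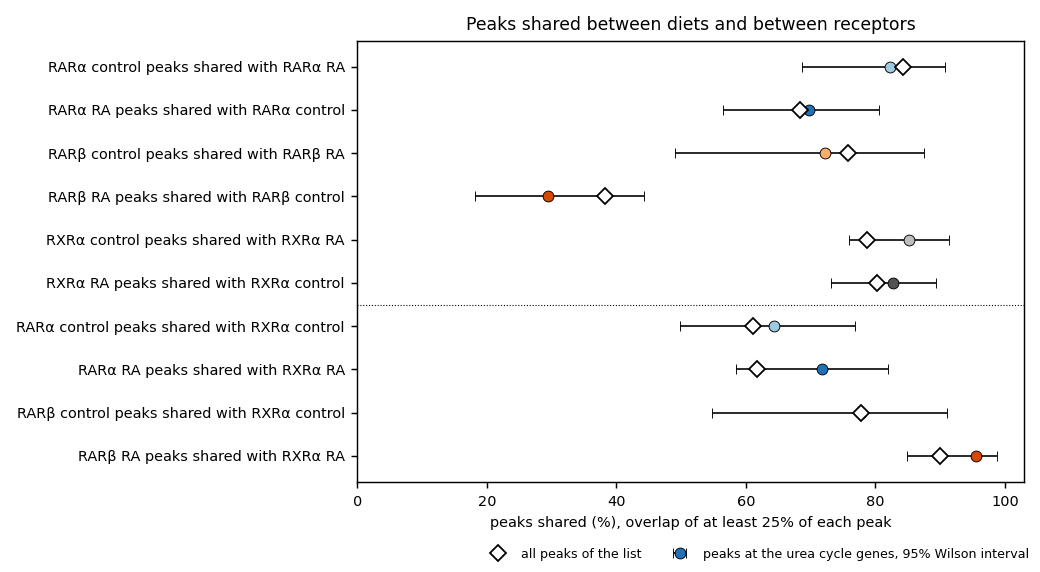
Filled circles give the percentage of peaks at the urea cycle genes that were shared with the named list (horizontal axis), with the Wilson 95% interval, and diamonds give the same over all peaks of the list, with diets above the dotted line and receptors below. The lowest circle is RARβ RA with RARβ control at 29.5% and the highest is RARβ RA with RXRα RA at 95.5%.

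Peaks that overlapped none of the same receptor under the other diet were listed for RARβ under RA at 8 of 8 genes, against 64.2% of all genes, and under the control diet at 4 of 8 (Asl, Arg1, Slc25a13 and Slc25a15), against 26.5%. The corresponding counts were 7 of 8 for RARα under RA, all but Slc25a13, against 58.9%, and 6 of 8 under the control diet, against 37.0%. For RXRα they were 6 of 8 under RA, against 57.4%, and 5 of 8 under the control diet, against 57.8%. Of the 44 RARβ peaks under RA, 31 (70.5%) were of this kind, against 61.1% of the whole list. Of the 31, 7 stood in the top 20% of the list, 4 at Slc25a13 and 1 each at Arg1, Cps1 and Asl. This count is given without the same share over the whole list, and Slc25a13 has the longest window, 276 kb. In the other 5 lists such peaks made up 13.6 to 28.3% of those at the 8 genes and 15.4 to 30.9% of the whole lists, and the Ass1 start peak of RXRα under RA was the only one in the top 20%.

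By region, 28 of the 102 regions (27.5%, interval 19.7 to 36.8) carried RXRα under both diets and RARβ under RA only, against 16.5% of all regions, which lies outside the interval for counting error. Regions of 1 gene share a window and are not independent, and this difference was not tested. The 28 regions made up all but 2 of the 30 regions in which RARβ was listed under RA only. The exceptions were the Ass1 start and a region 35.4 kb upstream of Otc at the start of Rpgr. RXRα under both diets was also common among such regions in the whole series, 14450 of 17343. In the 28 of the 30 regions that had an RXRα control peak, its median percentile was 85.2. RARα was called under RA in 22 of the 30. This median and this count are given without the same values over all regions. RARβ was listed under both diets in 13 regions. These lay near starts, at a median of 0.938 kb from the nearest protein-coding start, with 7 of 13 within 1 kb, 1 at a urea cycle gene (Nags) and 6 at neighbours. The 30 regions with RARβ under RA only lay at a median of 12.6 kb, with 5 within 1 kb. Over the whole series, the corresponding medians were 1.04 and 24.1 kb, so the same difference in position was present there.

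**Figure D5:**
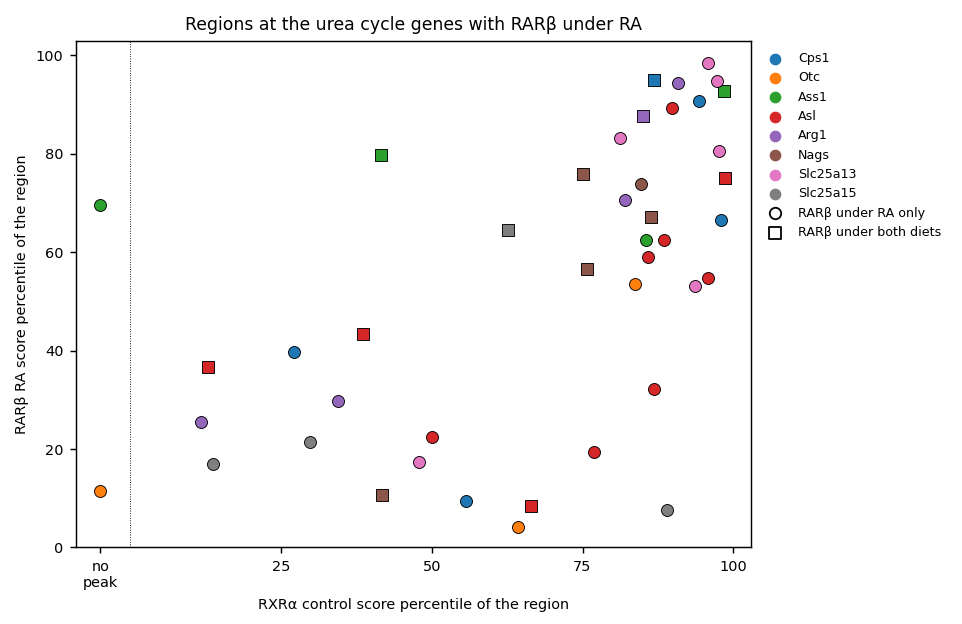
Each symbol is 1 region at a urea cycle gene with a RARβ peak under RA, by its RXRα percentile under the control diet (horizontal axis) and its RARβ percentile under RA (vertical axis), circles where RARβ was listed under RA only and squares where it was listed under both diets. Most circles with a high RARβ percentile lie at the right, among RXRα peaks of high rank, and 2 circles have no RXRα control peak.

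Of the 9 regions called in all 6 lists (8.82%, interval 4.71 to 15.9, against 9.75% of all regions), 6 lay within 1 kb of a start (66.7%). Over the whole series, 54.8% of such regions did. In 1 case the start was that of a urea cycle gene, Nags. A urea cycle gene had the nearest start for 3 of the 9, namely the Nags start, Cps1 at 6.52 kb upstream and Ass1 at 10.7 kb upstream. The other 6 were nearer to Mrps31, Med23, Gusb, Crcp, Tmem101 and G6pc3, and 5 of these lay within 1 kb of that start. RXRα under both diets with no RAR peak was found in 20 regions (19.6%), against 16.9% of all regions, and 15 of the 20 were nearest to a urea cycle gene. Counts by nearest gene are given without a matching value over all genes, and the windows also hold starts of other genes. A RAR peak with no RXRα peak was found in 13 regions, against 20.1%, including the Slc25a15 start. A call in a single list was found in 19 regions (18.6%, interval 12.3 to 27.3), against 29.4% of all regions, and 8 of these were at Slc25a13.

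Genes whose 6 highest-peak percentiles were most like the median of the 8 urea cycle genes, among genes over 100 kb from each of them, were Rassf3 (Euclidean distance 4.55), Dpf3 (5.52), Thsd4 (5.77), Adh6a (6.2) and Itih1 (6.25). Adh6a is an alcohol dehydrogenase, a class of enzymes that can oxidize retinol, and Itih1 encodes a plasma protein made by the liver. The list was set by peak ranks alone, and a function common to the 5 genes was not tested. The 8 genes themselves were at distances of 16.1 (Asl) to 77.3 (Otc) from their own median. The 5 genes were picked as the nearest among all the others, so their smaller distances follow from that choice.

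The genes around the cycle were read in the same way. Of 15 genes of nitrogen and amino acid metabolism, all 15 had RXRα peaks under both diets, against 83.7% and 84.3% of all genes. RARβ peaks were listed at 14 under the control diet, all but Slc7a2, a carrier for arginine and ornithine, and at 15 under RA, against 70.2% and 77.8%. A RARα start peak was listed at 12 of the 15 under each diet, against 45.9% and 46.2%. RARβ peaks were more numerous under RA at 12 of the 15 genes, fewer at Slc25a12, the other aspartate carrier (4 and 3), and equal at Got2 and Sirt5. The whole RARβ list was longer under RA too, and the median of all protein-coding genes was 1 peak and 3 peaks. Gene counts by direction are given without the same share over all genes. The highest RARβ percentile was higher under RA at 11 and lower at 4, namely Car5a, Slc38a3, Arg2 and Sirt5. At Got2, the mitochondrial aspartate aminotransferase, it was 55.9 under the control diet and 96.3 under RA. At Arg2, the mitochondrial arginase, it was 86.9 and 42.8, and at Sirt5, a mitochondrial deacylase, it was 82.9 and 24.5. Over the 15 genes its median was 81.7 under the control diet and 89.9 under RA, compared with 53.7 and 91.0 for the 8 urea cycle genes. The median of all genes was 62.6 and 77.2.

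All of 8 regulators known for these genes had peaks in each of the 6 lists, where 70.2% to 84.8% of all genes had one. RARβ peaks were more numerous under RA at 7 of them and equal at Creb1, which acts downstream of glucagon (2 under each diet). Hnf4a had 2 and 8, and Cebpa, a C/EBP factor that drives several cycle genes, had 6 and 9. The highest RARβ percentile was higher under RA at 6 regulators and lower at Foxa2 (52.5 and 37.5) and at Gcgr, the glucagon receptor (94.4 and 89.5). Here too, the counts by direction stand without the share over all genes, whose RARβ medians were also higher under RA.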

How the data were processed

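The deposited files hold 1 MACS peak list per ChIP library, called by the authors on single-end 35 bp reads aligned with Bowtie (the submitters' processing notes also name CASAVA 1.4 and the build mm10). The score in the deposited lists is 10 times the negative log10 of a peak's p-value, with a lowest value of 50, and was used only for ranks within a list because no normalization across libraries is given. The input library was not analysed here. Peaks on chromosome Y ended at up to 90842021, beyond the NCBIM37 length of 15902555, so gene spans of RefSeq GRCm38.p6 were used. Strand came from the RefSeq promoter table for 17491 genes and from GENCODE M1 by symbol for 4041 (Cps1, Asl and Arg1 among them), and 351 genes without one were left out. Exons and introns were not assigned, as only gene spans were used.

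The rule on named items took all 8 genes, their highest peak in each list, every peak within 1 kb of a start, regions called in all 6 lists, and peaks in the top 20% of a list with no overlap under the other diet. The members and gene lists were chosen with earlier results of these data known. With 1 library per group, no test was made. Alternatives changed the window, score minimum, list length, overlap, distance to the start and the peaks counted. Peaks covering the start base and the 3-base spacer were added after seeing the data. The counting was checked on lists with planted peaks, using Python 3.11.15, pandas 2.3.3 and bedtools 2.31.1.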

Additional observations from a re-analysis of the deposited data

Results flagged for a closer look

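At 5 genes, the list under RA held more peaks than the control list for at least 1 receptor and fewer for another. The share of all protein-coding genes with such opposite changes is not given, so whether this count is unusual cannot be told. The changes below are peaks under RA minus peaks under the control diet. They rest on 1 library per value, and whether they differ between receptors was not tested. Cps1 had changes of 3 (RARα), 4 (RARβ) and -4 (RXRα), and Arg1 of 4, 3 and -1 in the same order. Slc25a13 and Ass1 each had a change of -1 for RARα and 1 for RXRα, with 4 and 2 for RARβ. At Nags, RARβ changed by 1 and RXRα by -1. Apart from RXRα at Cps1, every fall was of 1 peak, and the lists compared differ in length.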

How the results depend on the processing

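No paired analysis was possible because each receptor and diet has 1 library. Of 154 recomputed counts and shares over the 8 genes, 114 stayed within 1.5 times or within the interval, and of 92 ranks of single genes, 45 (with own starts, Arg1 in RARβ control went from 96.4 to 23.6 and Slc25a15 in RARβ RA from 64.6 to 7.6). The order of lists is RARα control, RARα RA, RARβ control, RARβ RA, RXRα control and RXRα RA. With 10 kb around the genes, peaks numbered 21, 19, 9, 21, 42 and 41, and with 100 kb RARα RA had 83. At a score of at least 100, the first 4 lists kept 26, 34, 4 and 26 peaks, RARβ control reached 3 genes and 0 starts, and RARβ RA 2 starts. With lists shortened to 14968 peaks, the counts other than RARβ control were 19, 21, 26, 27 and 23, so that RARβ RA still exceeded the 18 of RARβ control, with 2 starts for RARβ RA and 1 for each RXRα list. With peaks nearest to the gene's own start, they were 23, 27, 8, 22 and, for RXRα RA, 50. The share of RARβ control peaks shared with RA was 38.9% at 50% overlap. The share of RARβ RA peaks shared with control was 15.9% at 50% overlap and 11.5% at the score minimum. For RXRα RA with control it was 91.3% in lists of equal length. The shares with RXRα in lists of equal length were 21.1% (RARα control), 28.6% (RARα RA), 33.3% (RARβ control) and 76.9% (RARβ RA), where the RXRα lists lose most peaks. RARα RA shared 56.6% at 50% overlap. RARβ control shared 100% (4 peaks) at the score minimum, and RARβ RA 100% at 10 kb, at the score minimum and with own starts. Read depth is unknown, so shorter lists cannot be told apart from fewer bound sites.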
